A study of Mus musculus with 6 samples.

Results

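Known oncogenes and retroviral integration sites of T cell lymphoma, 10 genes in all, were followed in mouse thymus: Myc, Mycn, Pim1, Pim2, Gfi1, Ccnd1, Ccnd2, Ccnd3, Evi5 and Ikzf1. Every probe set that the platform annotation assigns to exactly 1 gene symbol, and whose symbol is one of these 10, was taken, which gave 10 of 18193 genes with a probe set of their own and 25 of 45101 probe sets. All 10 genes had at least 1 such probe set, from 1 for Myc, Pim2 and Gfi1 to 7 for Ccnd2. In RefSeq they lie on chromosomes 15 (Myc), 12 (Mycn), 17 (Pim1 and Ccnd3), X (Pim2), 5 (Gfi1 and Evi5), 7 (Ccnd1), 6 (Ccnd2) and 11 (Ikzf1). The measured groups were (AKR/J x FVB/NJ)F1 thymus (AKR F1, 3 arrays) and (DBA/2J x FVB/NJ)F1 thymus (DBA F1, 3 arrays), in both cases from adult females. Both groups carry 1 set of chromosomes from FVB/NJ, so their chromosomes differ in the AKR/J or DBA/2J set, and no transgene or treatment is named. Effects of the mother's strain or of array batch were not tested. The stated purpose was to find baseline differences in expression between the genotypes. The labels do not say whether each array is a separate animal or a pool. The p-values set each difference against the spread between these arrays, estimated partly from other probe sets. That spread may be technical.

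Mice of the AKR/J strain develop thymic lymphoma spontaneously, after activation of endogenous murine leukaemia viruses. When such a virus integrates beside a growth-promoting gene, its enhancer can raise that gene's transcription, and genes hit again and again in independent tumours are called common integration sites. Several of these genes act together on cell cycle entry: Myc and Mycn are transcription factors that dimerise with Max, the Pim kinases and Gfi1 cooperate with Myc in lymphoma, the D cyclins activate Cdk4 and Cdk6 in G1, and Ikzf1 encodes Ikaros, a zinc finger repressor that acts as a tumour suppressor in T cells.

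Values are log2 probe set levels. Each difference is the AKR F1 mean minus the DBA F1 mean, also in log2 units, and ± gives its standard error (SE). Levels of different probe sets cannot be set against each other, because each has its own probes. The test took probe sets that exceeded the 40th percentile on 3 or more of the 6 arrays, and those with an adjusted p under 0.05 from limma (Benjamini-Hochberg, over all 27385 tested) were called. Array medians ran from 5.92 to 5.95, and correlations between arrays ran from 0.994 to 0.996 within a group and from 0.984 to 0.989 between groups. As markers of the labelled tissue, all 9 thymocyte genes looked up (Cd4, Cd8a, Cd8b1, Rag1, Rag2, Ptcra, Dntt, Cd3e and Thy1) passed the filter, as did Foxn1 and Psmb11 of thymic epithelium.

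The clearest differences lay in Evi5 and in the D cyclins, while Myc, Mycn, Pim1, Pim2, Gfi1 and Ikzf1 had no called probe set. Of the 25 probe sets 23 passed the filter, and 8 of these (34.8%) were called, 3 higher in AKR F1 thymus and 5 higher in DBA F1 thymus, against 27.2% of all tested probe sets (12.2% higher in AKR F1 thymus and 15.0% higher in DBA F1 thymus). The share among the 23 was thus near that of the array as a whole. Their median difference was -0.11 and their median absolute difference was 0.21, where all tested probe sets had 0.01 and 0.18. The groups did not overlap for 14 of the 23 (6 with the AKR arrays above and 8 with them below), against 44.7% of all tested probe sets. The 8 called probe sets belonged to 4 genes, and 4 of the 8 differed by less than 1.5-fold. In whole thymus, fewer cells of a type and less RNA per cell cannot be told apart. Whether variants between the strains lie under the probes, and so alter the values, was not analysed.

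**Figure D1:**
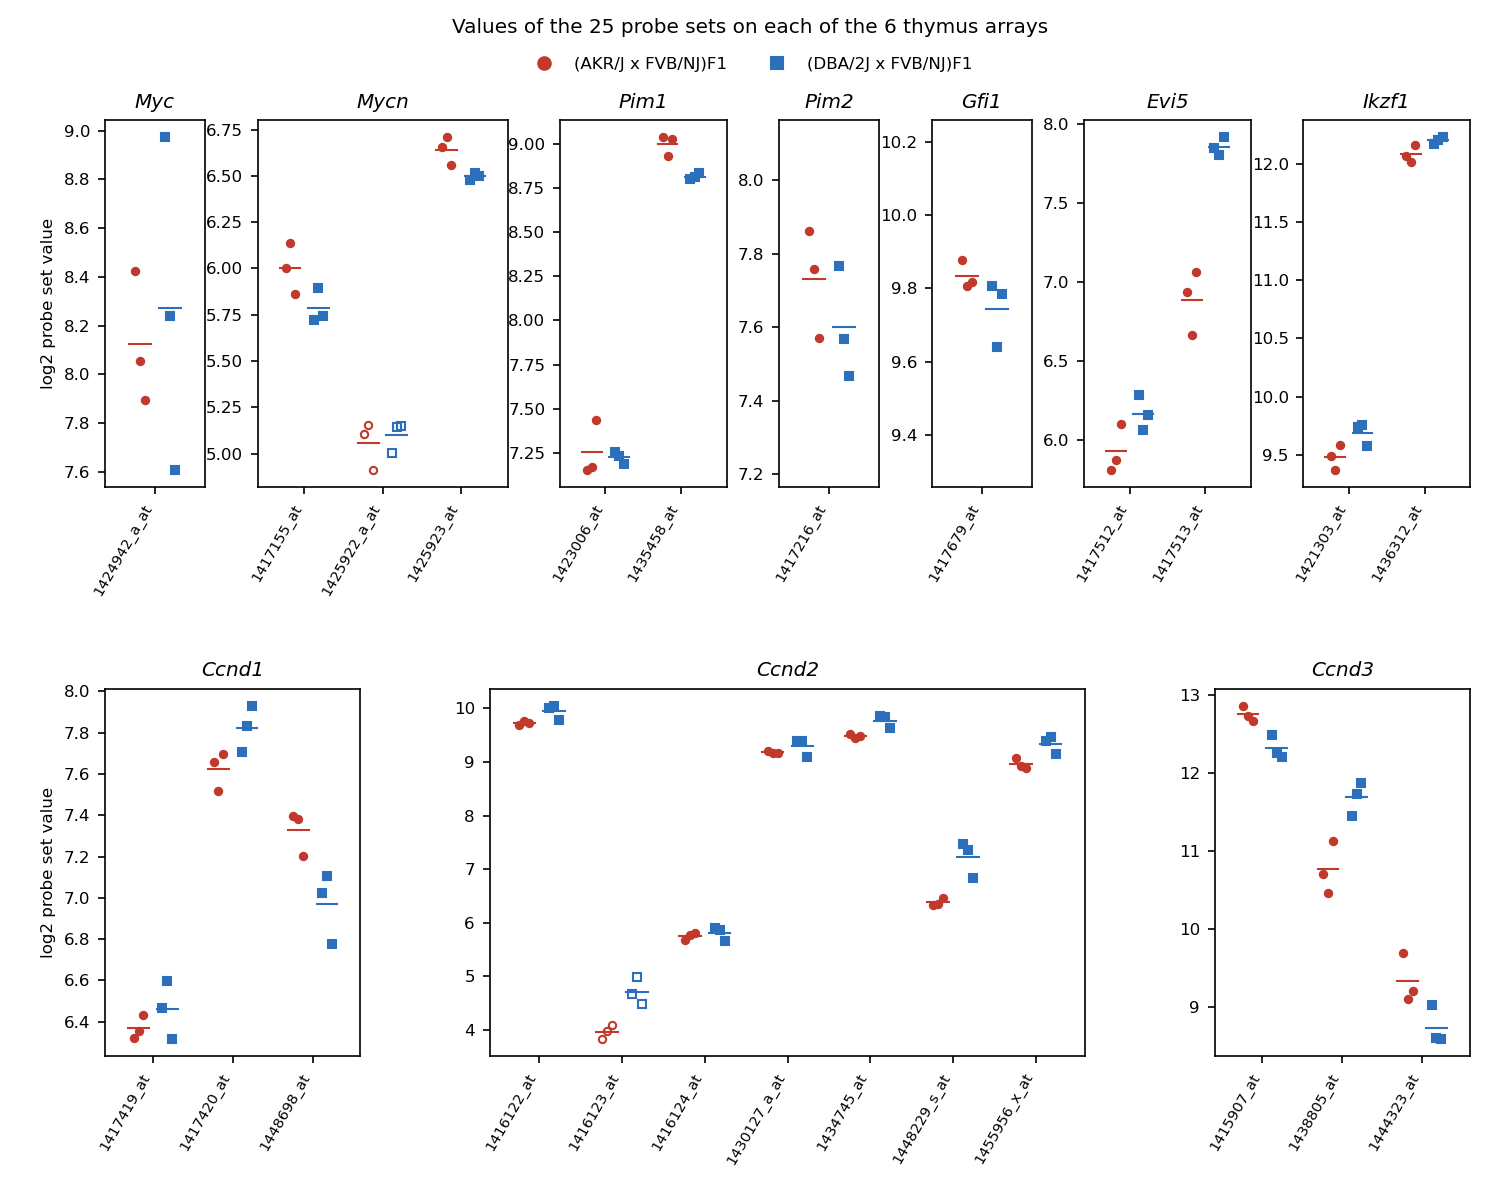
Log2 values of all 25 probe sets (y axis, each panel with its own range) on the 3 AKR F1 arrays (red circles) and the 3 DBA F1 arrays (blue squares), by gene, with a bar at each group mean. Open symbols mark the 2 probe sets too dim to be tested, and the widest separation is that of Evi5 1417513_at, with AKR arrays at 6.66 to 7.07 and DBA arrays at 7.81 to 7.92.

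**Figure D2:**
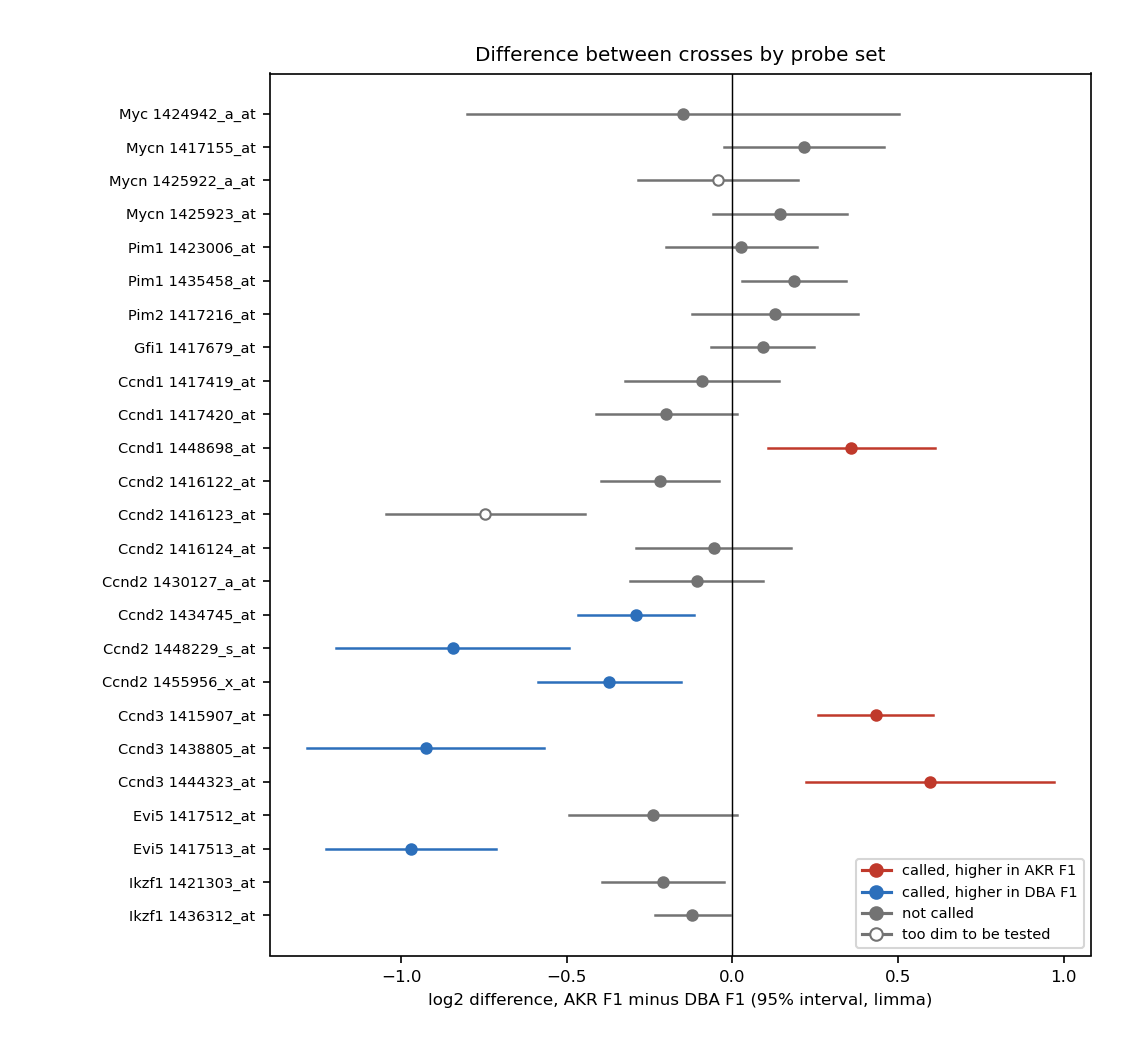
Difference between groups for each probe set (x axis, log2, AKR F1 minus DBA F1) with its 95% interval from limma, coloured where it was called. Evi5 1417513_at lies lowest at -0.97 and Ccnd3 1444323_at highest at 0.60, and the 3 Ccnd3 probe sets lie on both sides of 0.

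Evi5, named ecotropic viral integration site 5, encodes a GTPase-activating protein of the TBC family that has been linked to Rab11 and to the timing of mitosis. It is the chromosome 5 neighbour of Gfi1, a zinc finger repressor whose locus is a frequent target of virus integration in T cell lymphoma, and insertions near Evi5 are known to act on Gfi1. The 250 bases before the annotated starts of both genes are shown because Evi5 had a called probe set and Gfi1 did not. They come from RefSeq (GRCm38.p6), run 5′ to 3′ on the minus strand, and capitals mark matches on either strand to GGGCGG (the GC box bound by Sp1) or TGGGAA (the core letters of Ikaros sites).
Evi5, chr5:107869049-107869298: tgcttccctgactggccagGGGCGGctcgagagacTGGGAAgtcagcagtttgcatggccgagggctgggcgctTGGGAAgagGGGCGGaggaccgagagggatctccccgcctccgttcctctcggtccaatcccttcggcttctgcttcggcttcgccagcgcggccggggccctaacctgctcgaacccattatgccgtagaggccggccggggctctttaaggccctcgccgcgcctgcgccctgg
Gfi1, chr5:107725806-107726055: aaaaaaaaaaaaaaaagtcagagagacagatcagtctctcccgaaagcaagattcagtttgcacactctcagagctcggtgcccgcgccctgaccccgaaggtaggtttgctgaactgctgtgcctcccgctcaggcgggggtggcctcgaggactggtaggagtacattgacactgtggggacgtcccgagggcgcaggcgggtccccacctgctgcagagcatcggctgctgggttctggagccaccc
The Evi5 window held 2 matches to GGGCGG and 2 to TGGGAA, which occur in 32.7% and 21.6% of all 32851 promoter windows of this length. The Gfi1 window held neither, and its second annotated start, not shown, also held none. Neither gene's windows held the Myc and Max E-box CACGTG (6.02% of windows), the E2F letters TTTGGCGC (0.417%) or TTTCCCGC (0.895%), or the Runx core ACCACA (14.0%). A match describes letters in a C57BL/6J reference and says nothing of the alleles in these mice.

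Evi5 was lower in AKR F1 thymus on its brighter probe set, 1417513_at. The 3 AKR arrays read 6.94, 6.66 and 7.07, and the 3 DBA arrays read 7.85, 7.81 and 7.92. The groups did not overlap, and the gap between the highest AKR array and the lowest DBA array was 0.74. The difference was -0.97 ± 0.11 (SE, 95% interval -1.23 to -0.72, adjusted p = 0.000416, limma), which was 1.96-fold higher in DBA F1 thymus, and it was called with any 1 array left out (highest adjusted p = 0.00313, limma). The other Evi5 probe set, 1417512_at, read 5.81, 5.87 and 6.10 on the AKR arrays and 6.28, 6.06 and 6.16 on the DBA arrays. Its groups overlapped through AKR replicate 3, and its difference of -0.24 ± 0.11 (95% interval -0.49 to 0.01) was not called (adjusted p = 0.144, limma).

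Gfi1 had a single probe set, 1417679_at, which read 9.88, 9.81 and 9.82 on the AKR arrays and 9.81, 9.64 and 9.78 on the DBA arrays. The AKR arrays lay above the DBA arrays by no more than the second decimal at the nearest pair. The difference of 0.09 ± 0.07 (95% interval -0.06 to 0.25) was not called (adjusted p = 0.351, limma). The log2 ratio of Evi5 1417513_at to Gfi1 on the same array was -2.94, -3.14 and -2.75 in AKR F1 thymus, against -1.96, -1.83 and -1.86 in DBA F1 thymus. These ratios did not overlap between groups and differed by -1.06. They had to separate, since the AKR arrays lay below the DBA arrays on Evi5 1417513_at and above them on Gfi1. This pair, like the other 6 pairs of probe sets set against each other within arrays, was picked after the calls were seen, so its ratio is a description without a test.

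The nearest tested gene on the other side of Evi5 was also lower in AKR F1 thymus. In the RefSeq gene order (GRCm38.p6), the next tested gene after Evi5 away from Gfi1 is Dipk1a, which read 8.28, 8.33 and 8.53 on the AKR arrays and 9.06, 9.14 and 9.16 on the DBA arrays. The groups did not overlap, and the difference was -0.74 ± 0.09 (adjusted p = 0.000406, limma), or 1.67-fold higher in DBA F1 thymus. Of the 10 tested genes nearest Evi5, 5 on each side, Dipk1a and Tgfbr3, a TGF-beta coreceptor gene (-0.24 ± 0.07), were called and the remaining 8 were not. That share lies below the 25.0% called among all genes by their brightest tested probe set. Tgfbr3 is the farthest of the 5 on the Gfi1 side, and Gfi1, Rpap2, Glmn and Brdt, which lie between, were not called. Tgfbr3 had 1 other tested probe set, which was not called. Among the 8, other probe sets were called higher in DBA F1 thymus for Brdt (its 1 other) and Mtf2 (1 of 4). Tmed5 had 1 of 3 others called in each direction.

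The D cyclins bind and activate Cdk4 and Cdk6, which phosphorylate the retinoblastoma protein and open the way to S phase. Ccnd3 is the D cyclin that expanding early thymocytes depend on after pre-T cell receptor signalling, and all 3 of its probe sets were called, but not in 1 direction. Probe set 1415907_at read 12.86, 12.72 and 12.66 on the AKR arrays and 12.48, 12.26 and 12.20 on the DBA arrays. All AKR arrays were above all DBA arrays, with a difference of 0.43 ± 0.08 (95% interval 0.26 to 0.61, adjusted p = 0.00368, limma), or 1.35-fold higher in AKR F1 thymus. Probe set 1444323_at moved the same way, at 9.69, 9.09 and 9.20 in AKR F1 thymus and 9.02, 8.59 and 8.58 in DBA F1 thymus (0.60 ± 0.17, 1.51-fold, adjusted p = 0.0272, limma). Probe set 1438805_at moved the opposite way, at 10.70, 10.45 and 11.12 on the AKR arrays and 11.45, 11.73 and 11.87 on the DBA arrays. Again the groups did not overlap, and the difference was -0.93 ± 0.16 (95% interval -1.28 to -0.57, adjusted p = 0.00307, limma), or 1.90-fold higher in DBA F1 thymus.

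The opposite calls within Ccnd3 can be read array by array. The log2 ratio of 1438805_at to 1415907_at was -2.16, -2.27 and -1.54 on the AKR arrays, against -1.03, -0.53 and -0.33 on the DBA arrays, a difference of -1.36 with no overlap. Against 1444323_at the difference was -1.52, again with no overlap. Because the groups lay apart in opposite directions on the paired probe sets, both ratios had to separate. Their lack of overlap adds nothing to the values above. The other 2 probe sets kept closer to each other, with a ratio that differed by 0.16 between groups and overlapped. With probe sets that move in opposite directions, neither sign can be given as that of the Ccnd3 RNA level, and the mean of the 3 differed by 0.03 ± 0.08 (adjusted p = 0.778, limma over genes). The calls of 1415907_at and 1438805_at held with any 1 array left out (highest adjusted p = 0.0201 and 0.0172, limma). That of 1444323_at was lost without AKR replicate 1 (0.41, adjusted p = 0.0622), without DBA replicate 2 (0.53, adjusted p = 0.0931) and without DBA replicate 3 (0.52, adjusted p = 0.0939, limma). Which exons or transcript ends these probe sets cover was not analysed here.

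RefSeq (GRCm38.p6) gives Ccnd3 2 starts on the plus strand of chromosome 17. The 250 bases before each are shown because the probe sets of the gene disagree and its transcripts can begin at either place. Capitals mark GGGCGG on either strand.
Ccnd3, upstream start, chr17:47504801-47505050: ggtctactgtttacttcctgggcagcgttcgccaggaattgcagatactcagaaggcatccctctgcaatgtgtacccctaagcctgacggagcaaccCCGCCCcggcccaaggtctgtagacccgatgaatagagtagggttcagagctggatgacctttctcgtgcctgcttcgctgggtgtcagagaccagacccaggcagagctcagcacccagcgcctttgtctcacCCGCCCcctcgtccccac
Ccnd3, downstream start, chr17:47593217-47593466: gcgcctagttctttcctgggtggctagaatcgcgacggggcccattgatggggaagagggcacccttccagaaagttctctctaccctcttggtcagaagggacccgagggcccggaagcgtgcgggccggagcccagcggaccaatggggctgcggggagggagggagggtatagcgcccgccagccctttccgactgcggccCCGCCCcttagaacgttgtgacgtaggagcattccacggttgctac
The upstream window held 2 matches to GGGCGG and the downstream window 1, and neither held any of the other 5 motifs. Whether any of the 3 probe sets separates the 2 starts was not analysed here.

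Ccnd2, a D cyclin gene also known as the Vin1 integration site, had a negative difference on each of its 7 probe sets, from -0.06 to -0.85. Of the 6 tested, 3 were called, all lower in AKR F1 thymus. The largest called difference was that of 1448229_s_at, which read 6.33, 6.34 and 6.46 on the AKR arrays and 7.47, 7.36 and 6.84 on the DBA arrays. The groups did not overlap, although DBA replicate 3 stood nearer to the AKR arrays, and the difference was -0.85 ± 0.16 (95% interval -1.20 to -0.49, adjusted p = 0.00436, limma), or 1.80-fold higher in DBA F1 thymus. The suffix _s marks probes that can match transcripts of several genes, and _x marks probes that can cross-hybridise. Probe set 1455956_x_at read 9.07, 8.93 and 8.89 in AKR F1 thymus and 9.39, 9.47 and 9.15 in DBA F1 thymus, without overlap (-0.37 ± 0.10, adjusted p = 0.0198, limma). Probe set 1434745_at, without such a suffix, read 9.52, 9.45 and 9.48 in AKR F1 thymus and 9.85, 9.84 and 9.63 in DBA F1 thymus, also without overlap (-0.29 ± 0.08, adjusted p = 0.0224, limma).

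The brightest Ccnd2 probe set, 1416122_at, read 9.69, 9.76 and 9.74 on the AKR arrays and 10.01, 10.05 and 9.79 on the DBA arrays. Its groups did not overlap, and its difference of -0.22 ± 0.08 was not called (adjusted p = 0.0703, limma). Probe set 1430127_a_at read 9.21, 9.17 and 9.18 in AKR F1 thymus and 9.38, 9.40 and 9.10 in DBA F1 thymus (-0.11 ± 0.09). Probe set 1416124_at read 5.69, 5.78 and 5.80 in AKR F1 thymus and 5.91, 5.86 and 5.66 in DBA F1 thymus (-0.06 ± 0.10). Both overlapped, since DBA replicate 3 lay below all AKR arrays, and neither was called. The seventh, 1416123_at, lay below the 40th percentile on all 6 arrays, at 3.82, 3.98 and 4.08 in AKR F1 thymus and 4.67, 4.98 and 4.48 in DBA F1 thymus. It was too dim for the test, and in the fit without a filter its difference was -0.75 ± 0.13 (adjusted p = 0.00435, limma). DBA replicate 3 was the lowest DBA array on all 7 Ccnd2 probe sets, as it was on 38.7% of all tested probe sets. Without DBA replicate 3 the 1416122_at difference was called (-0.30, adjusted p = 0.0198, limma). The calls of 1434745_at and 1455956_x_at were each lost without AKR replicate 2 (-0.28, adjusted p = 0.0665, and -0.36, adjusted p = 0.0611), without AKR replicate 3 (-0.29, 0.0565, and -0.34, 0.0613), without DBA replicate 1 (-0.25, 0.0702, and -0.34, 0.0568) and without DBA replicate 2 (-0.26, 0.0839, and -0.31, 0.0767, limma). The mean of the tested Ccnd2 probe sets differed by -0.32 ± 0.09 (adjusted p = 0.0309, limma over genes).

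Ccnd1, the cyclin of many epithelial and stromal cells, gave probe sets of both signs with 1 of 3 called. Probe set 1448698_at read 7.39, 7.38 and 7.20 in AKR F1 thymus and 7.03, 7.11 and 6.77 in DBA F1 thymus. Its groups did not overlap, and the difference was 0.36 ± 0.11 (95% interval 0.11 to 0.61, adjusted p = 0.0414, limma), or 1.28-fold. Leaving out AKR replicate 1 ended this call (0.32, adjusted p = 0.112), as did leaving out AKR replicate 2 (0.33, 0.118), DBA replicate 1 (0.39, 0.0614) or DBA replicate 3 (0.26, 0.122, limma), or dropping the filter on dim probe sets (adjusted p = 0.0544, limma). Probe set 1417420_at read 7.66, 7.52 and 7.70 in AKR F1 thymus and 7.71, 7.83 and 7.93 in DBA F1 thymus. Here every AKR array was below every DBA array, narrowly, and the difference of -0.20 ± 0.09 (95% interval -0.41 to 0.01) was not called (adjusted p = 0.147, limma). Probe set 1417419_at overlapped, at 6.32, 6.36 and 6.43 in AKR F1 thymus and 6.47, 6.60 and 6.31 in DBA F1 thymus (-0.09 ± 0.10, 95% interval -0.32 to 0.14), and was not called. The log2 ratio of 1448698_at to 1417420_at was higher on every AKR array, at -0.26, -0.13 and -0.50, than on the DBA arrays, at -0.68, -0.73 and -1.16. That separation follows from the groups lying apart in opposite directions on 1448698_at and 1417420_at. The mean of the 3 Ccnd1 probe sets differed by 0.02 ± 0.07.

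**Figure D3:**
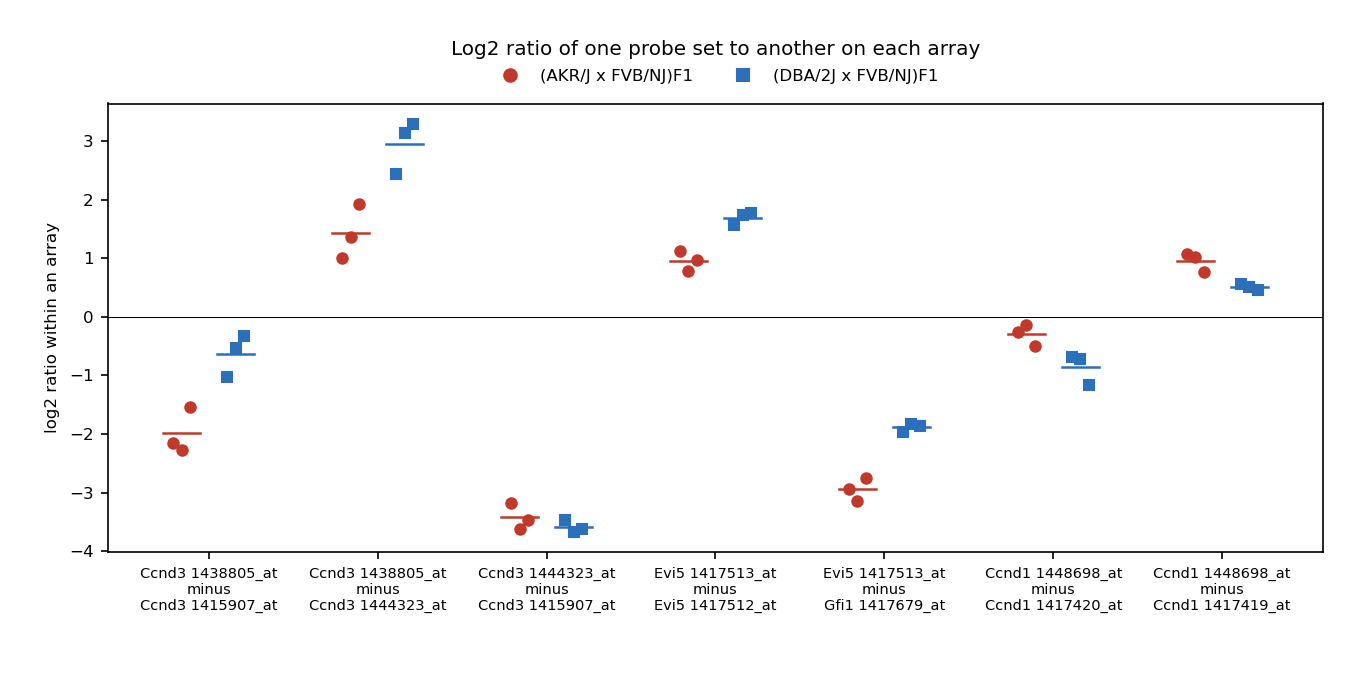
Log2 ratio of one probe set to another on the same array (y axis) for the 7 pairs compared (x axis), with AKR F1 thymus in red circles left of DBA F1 thymus in blue squares and a bar at each mean. The 2 groups separate for 6 of the pairs and overlap for Ccnd3 1444323_at against 1415907_at, where the ratio differed by 0.16.

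Myc, a transcription factor gene and a frequent target of virus integration in murine T cell lymphoma, varied more within each group than between them. Its single probe set, 1424942_a_at, read 8.42, 8.06 and 7.89 on the AKR arrays and 8.98, 8.24 and 7.61 on the DBA arrays. The AKR arrays fell inside the range of the DBA arrays. In both groups the values fell in the order of the replicate numbers. With the replicate number as a block, Myc was still not called (adjusted p = 0.408, limma). The difference of -0.15 ± 0.29 was not called (adjusted p = 0.732, limma), and its 95% interval ran from -0.80 to 0.50, the widest among the members. Without DBA replicate 1 the difference was 0.20, on the other side of 0 (adjusted p = 0.510, limma). Mycn, its relative in early lymphoid and neural cells, had 2 tested probe sets with differences of 0.22 ± 0.11 (1417155_at, adjusted p = 0.167) and 0.14 ± 0.09 (1425923_at, adjusted p = 0.259, limma). Probe set 1425923_at read 6.66, 6.71 and 6.56 in AKR F1 thymus and 6.48, 6.52 and 6.497 in DBA F1 thymus, without overlap. The other tested one overlapped, with AKR values of 6.003, 6.14 and 5.86 and DBA values of 5.72, 5.89 and 5.74. The third Mycn probe set, 1425922_a_at, lay below the 40th percentile on all 6 arrays, at 5.11, 5.15 and 4.91 in AKR F1 thymus and 5.01, 5.15 and 5.15 in DBA F1 thymus (-0.04 ± 0.11, not tested).

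Pim1 and Pim2 encode serine/threonine kinases that promote survival and protein synthesis downstream of cytokine receptors. Pim1 1435458_at read 9.04, 8.93 and 9.03 in AKR F1 thymus and 8.80, 8.81 and 8.83 in DBA F1 thymus. All AKR arrays lay above all DBA arrays, but the difference of 0.19 ± 0.07 (95% interval 0.03 to 0.34) was not called (adjusted p = 0.0755, limma). It was called after quantile normalization (0.23, adjusted p = 0.0252, limma) and with each probe set given its own variance (adjusted p = 0.0492). The other Pim1 probe set, 1423006_at, read 7.15, 7.17 and 7.43 in AKR F1 thymus and 7.25, 7.23 and 7.19 in DBA F1 thymus, with AKR replicate 3 alone above the DBA arrays. Its difference was 0.03 ± 0.10 with all arrays and -0.06 without AKR replicate 3. Pim2, on the X chromosome, read 7.86, 7.76 and 7.57 in AKR F1 thymus and 7.77, 7.57 and 7.47 in DBA F1 thymus, overlapping, with a difference of 0.13 ± 0.11 (95% interval -0.12 to 0.38, adjusted p = 0.414, limma).

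Ikzf1, the Ikaros gene, was read by 2 probe sets with small negative differences. Probe set 1436312_at, between the percentiles 99.0 and 99.2 of each array, read 12.07, 12.01 and 12.16 in AKR F1 thymus and 12.17, 12.20 and 12.23 in DBA F1 thymus. The groups touched without overlapping, and the difference of -0.12 ± 0.05 (95% interval -0.23 to -0.01) was not called (adjusted p = 0.101, limma). Probe set 1421303_at read 9.49, 9.37 and 9.58 in AKR F1 thymus and 9.74, 9.75 and 9.58 in DBA F1 thymus, with AKR replicate 3 level with DBA replicate 3, and was not called either (-0.21 ± 0.08, adjusted p = 0.0862, limma). The intervals of both probe sets lie between -0.39 and -0.01, so a difference of 1.5-fold is outside them.

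The tested genes on either side of each member were counted in the RefSeq order, 5 on each side, and 8 in all for Ccnd1. Counting each gene that is no member once, 20 of 88 neighbours (22.7%) were called, 12 higher in AKR F1 thymus and 8 higher in DBA F1 thymus, against 25.0% of all 12855 genes represented by their brightest tested probe set. The neighbours of Pim1 on chromosome 17 held 4 called genes of 10, all higher in AKR F1 thymus: Mtch1 (0.70 ± 0.08, adjusted p = 0.000487, limma), Fgd2 (0.39 ± 0.11), Tbc1d22b (0.32 ± 0.08) and Mdga1 (0.40 ± 0.12). Those of Ikzf1 on chromosome 11 also held 4 of 10, with Fignl1 (0.39 ± 0.10) and Eldr (0.60 ± 0.16) higher in AKR F1 thymus and Tns3 (-0.56 ± 0.11) and Grb10 (-0.48 ± 0.11) higher in DBA F1 thymus. Beside Ccnd3, Bysl (0.41 ± 0.11) and Mrps10 (0.41 ± 0.09) were higher in AKR F1 thymus and AI661453 (-0.32 ± 0.11) was higher in DBA F1 thymus. Myc, Ccnd1 and Ccnd2 each had 1 called neighbour, and Mycn and Pim2 had 2. All these counts rest on brightest probe sets, and some neighbours not called had other probe sets that were. The 1 other tested probe set of Ccdc167, a Pim1 neighbour not called, was called higher in DBA F1 thymus. That of Bysl was not called, and that of Mrps10 was called alike.

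**Figure D4:**
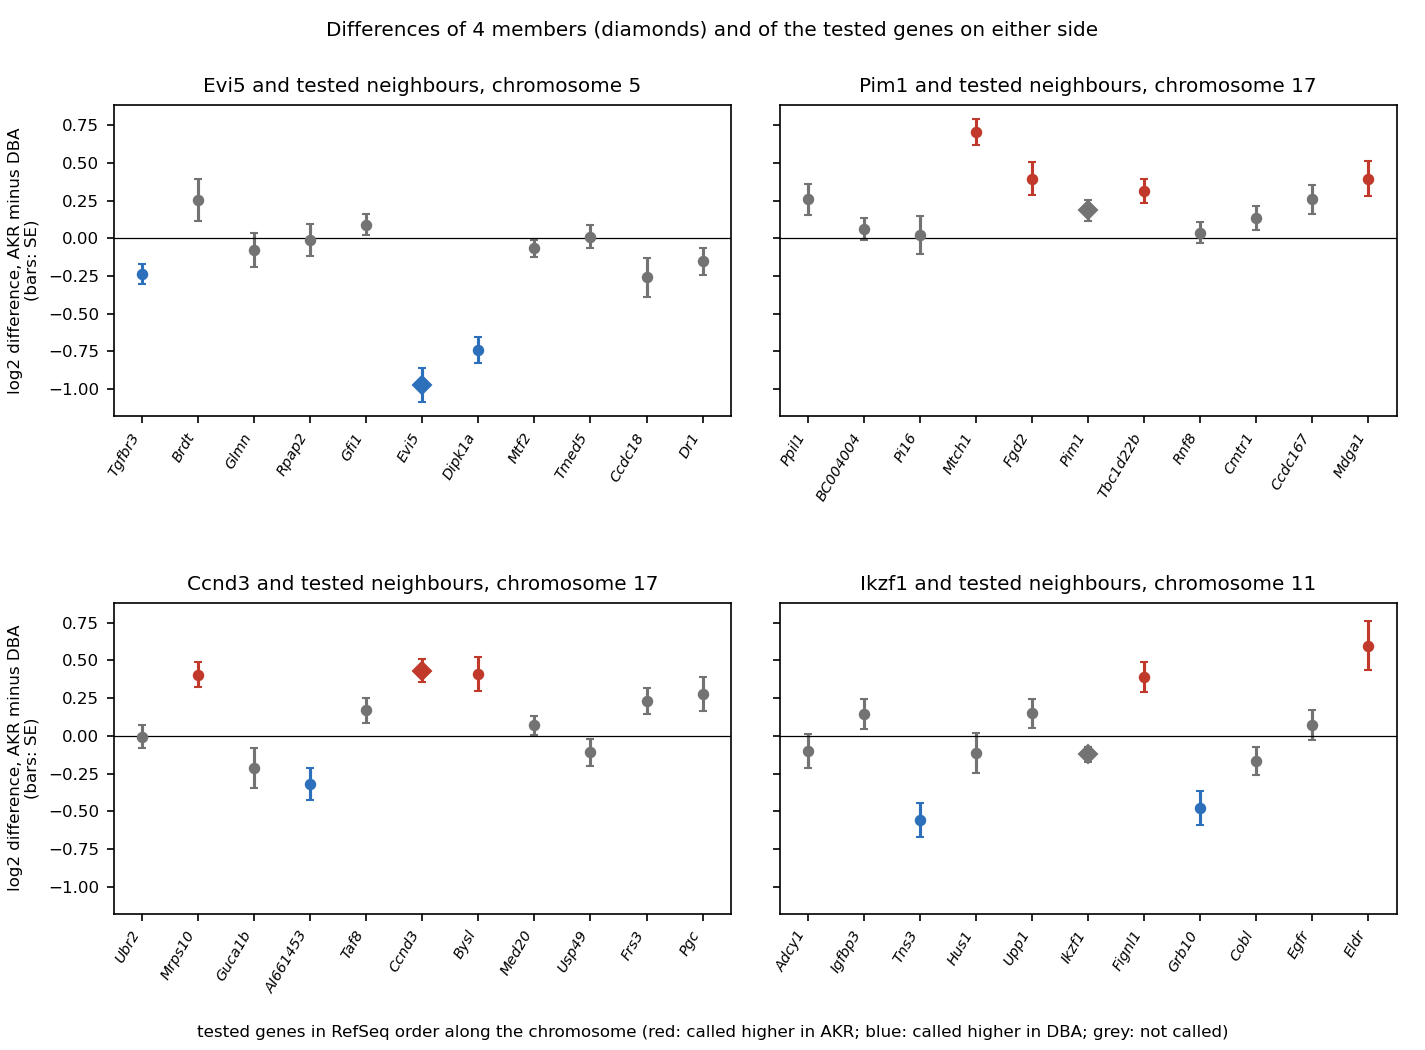
Log2 difference (y axis, AKR F1 minus DBA F1, bars are SE) of Evi5, Pim1, Ccnd3 and Ikzf1 (diamonds, brightest tested probe set) and of the 5 tested genes on each side of them (circles) in chromosome order (x axis). Evi5 (-0.97) and Dipk1a (-0.74) stand together below their neighbours, while Gfi1 (0.09) next to Evi5 does not.

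Partners and regulators of the D cyclins were called in both directions. Of 21 tested genes in this list (Cdk, inhibitor, Rb and E2F family genes), 8 were higher in AKR F1 thymus, 3 were higher in DBA F1 thymus and 10 were not called, which is 52.4% called against 25.0% of all genes. The list median was 0.18, where all genes had 0.03. Cdk4, the main kinase partner of the D cyclins, read 10.79, 10.73 and 10.82 in AKR F1 thymus and 10.39, 10.43 and 10.27 in DBA F1 thymus. The groups did not overlap, the difference was 0.42 ± 0.06 (adjusted p = 0.00153, limma), and both other Cdk4 probe sets were called the same way. E2f4, an E2F factor of quiescent and cycling cells, was 1.47-fold higher in AKR F1 thymus (0.56 ± 0.07, adjusted p = 0.000812, limma). Cdkn1c, which encodes the Cdk inhibitor p57, was 1.63-fold higher in DBA F1 thymus (-0.71 ± 0.10, adjusted p = 0.00106, limma).

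Proliferation markers moved with this list: 6 of 11 tested were higher in AKR F1 thymus and 0 in DBA F1 thymus, with a mean level over the list of 11.09 to 11.27 on the AKR arrays and 10.94 to 10.96 on the DBA arrays. B cell markers did so too, with 4 of 5 higher in AKR F1 thymus and list means of 7.71 to 7.85 on the AKR arrays and 7.22 to 7.32 on the DBA arrays. Thymocyte markers had 2 of 9 higher in AKR F1 thymus (list means of 11.72 to 11.84 against 11.60 to 11.63). For scale, 25.0% of all genes were called, 13.1% higher in AKR F1 thymus and 11.9% higher in DBA F1 thymus. The called share of the thymocyte markers was near that of all genes. Epithelial markers, of cells that can express Ccnd1, had 1 of 8 higher in AKR F1 thymus and 3 higher in DBA F1 thymus (list means of 9.33 to 9.46 against 9.42 to 9.54). For fibroblasts 1 of 7 was higher in DBA F1 thymus (8.08 to 8.37 against 8.15 to 8.63), for myeloid cells 1 of 6 was higher in each group (9.14 to 9.30 against 9.30 to 9.45), and for endothelium 0 of 3 were called (7.25 to 7.37 against 7.26 to 7.30). Of the defining markers on the array, Tek and Emcn of endothelium and Itgam of myeloid cells did not pass the filter. These marker lists are short, and their called shares were not tested against that of all genes. The part of these cells in the differences of the D cyclins and their partners was not tested.

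Genes of the Myc and Max network were also called in both directions. Of 15 tested, 2 were higher in AKR F1 thymus, 5 were higher in DBA F1 thymus and 8 were not called (46.7% called, against 25.0% of all genes, of which 13.1% were higher in AKR F1 thymus and 11.9% in DBA F1 thymus, with a list median of -0.09). Mxd3, a Max-binding repressor of the Mad family that is expressed in S phase, read 8.80, 8.74 and 8.75 in AKR F1 thymus and 7.996, 7.94 and 7.85 in DBA F1 thymus. That was 1.78-fold higher in AKR F1 thymus (0.83 ± 0.08, adjusted p = 0.000113, limma), without overlap, and both other Mxd3 probe sets were called the same way. Mxd4, a further Mad family repressor of resting cells, went the other way (-0.40 ± 0.08, adjusted p = 0.00775, limma), with 1 of 3 other probe sets called alike. Max itself, named after its value was seen, was also higher in DBA F1 thymus (-0.49 ± 0.13, adjusted p = 0.0254, limma). Ruvbl2, an ATPase that serves as a Myc cofactor, was 1.25-fold higher in AKR F1 thymus (0.32 ± 0.06). Known Myc target genes went both ways, with 6 of 22 higher in AKR F1 thymus, 3 higher in DBA F1 thymus and 13 not called (40.9% called against the same 25.0%, median 0.09). Shmt2, a mitochondrial enzyme of one-carbon metabolism, was 1.58-fold higher in AKR F1 thymus (0.66 ± 0.10, adjusted p = 0.00175, limma) with all 3 other probe sets called alike, and Ldha, a lactate dehydrogenase gene, was 1.29-fold higher (0.36 ± 0.07). Nop58, a nucleolar protein of small RNA complexes, was 2.39-fold higher in DBA F1 thymus on its only tested probe set (-1.26 ± 0.11, adjusted p = 7.84e-05, limma).

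Of 24 tested genes among other integration sites and oncogenes of T cell lymphoma, 3 were higher in AKR F1 thymus, 1 was higher in DBA F1 thymus and 20 were not called. That is 16.7% called, below the 25.0% of all genes, with a median of -0.02. Notch1, Runx1 and Myb, transcription regulators of thymocytes, were among those not called, at differences of 0.07 ± 0.07, 0.04 ± 0.16 and -0.01 ± 0.07. These counts rest on brightest probe sets, and some genes not called had other probe sets that were. Those called higher in DBA F1 thymus were 1 of 5 for Runx1, all 3 for Ets1 and 1 of 2 for Nras. The 1 other probe set of Runx3 was called higher in AKR F1 thymus. Stat5a, a transcription factor gene downstream of interleukin 7, was 1.27-fold higher in AKR F1 thymus (0.35 ± 0.07, adjusted p = 0.00734, limma), and Akt1, a survival kinase gene, was 1.24-fold higher (0.31 ± 0.06), though neither of its 2 other probe sets was called. Mecom, the Evi1 locus, was 1.42-fold higher in DBA F1 thymus, at 5.09, 5.22 and 5.44 on the AKR arrays and 5.73, 5.83 and 5.70 on the DBA arrays (-0.50 ± 0.11, adjusted p = 0.0115, limma). These values are dim: the 40th percentile of the filter lay at 5.21 to 5.28, above AKR replicate 1. The 3 DBA arrays alone were enough for Mecom to pass, so its call rests partly on values near the floor. Relatives and partners of Pim, Gfi1, Ikaros and Evi5 had 4 of 20 higher in AKR F1 thymus, 7 higher in DBA F1 thymus and 9 not called (55.0% called against 25.0%, median -0.01). Rcor1, the corepressor that joins Gfi1 to the demethylase Kdm1a, was 1.39-fold higher in DBA F1 thymus (-0.48 ± 0.07, adjusted p = 0.00124, limma), with 1 of 2 other probe sets called alike. Id2 (-0.68 ± 0.09) and Ctbp2 (-0.43 ± 0.08) had the same direction on their brightest probe sets, with 0 of their other tested probe sets called. Of the 4 Ikaros relatives, named after their values were seen, Ikzf3 (-0.28 ± 0.08) and Ikzf5 (-0.36 ± 0.10) were higher in DBA F1 thymus on their brightest probe sets, while the 1 other tested probe set of each was not called. Ikzf4 (0.03 ± 0.10) and Ikzf2 (-0.19 ± 0.07) were not called, and 1 of 2 other Ikzf2 probe sets was called higher in AKR F1 thymus.

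**Figure D5:**
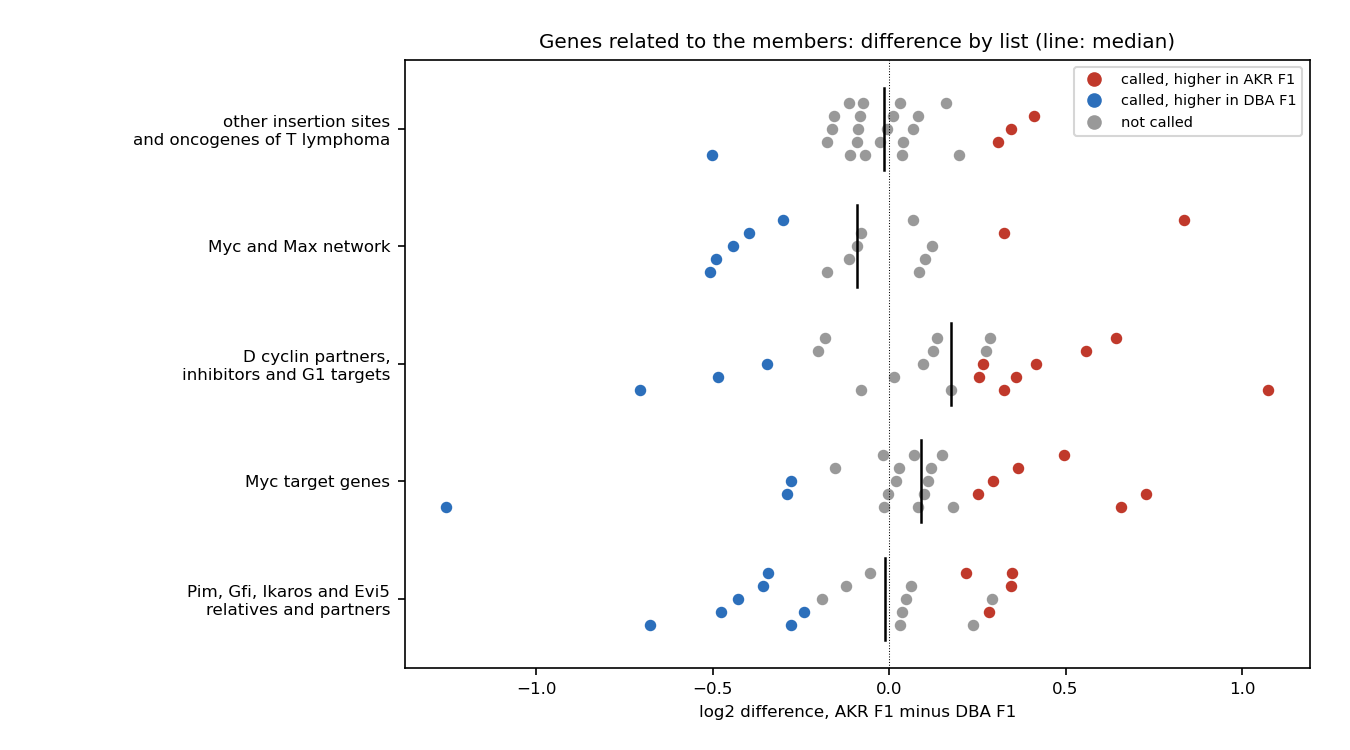
Log2 difference (x axis, AKR F1 minus DBA F1) of each tested gene in the 5 lists (rows), by its brightest tested probe set, with a line at each list's median and called genes in colour. The D cyclin partners have a median of 0.18 and 8 genes called higher in AKR F1 thymus, and the Myc and Max network has a median of -0.09 and 5 genes called higher in DBA F1 thymus.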

How the data were processed

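Thymus RNA was extracted with Trizol and labelled with biotin for Affymetrix arrays, per the labels' protocols. The deposited values are log2 probe set levels made by the authors. The tools named, per the submitters' processing notes, are MAS5 and RMA, with no word on which produced this table. Values were used as deposited, without detection calls or array dates, and no 2 arrays were identical. The number of arrays limits the precision.

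The 64 control probe sets were left out, and 27385 of 45037 others passed the filter. Differences were fitted on the whole table by two-sided moderated tests with a variance trend (limma 3.58.1, R 4.3.3) and Benjamini-Hochberg adjustment. For lists and neighbours each gene stood as its brightest tested probe set, and 12804 of 12855 such genes matched the RefSeq table of GRCm38.p6 by Entrez identifier. Promoter windows were found for 7 of the 10 members. All probe sets of the members are named; from each list up to 3 called genes with the smallest adjusted p are named. Called neighbours may be named, and other genes in the text were picked after their values were seen. Members, lists and rules were chosen with earlier results of these data known, so none is independent support. Figures were drawn with matplotlib 3.10.9 (Python 3.11.15). Alternatives were 2 other filters, quantile normalization, 2 variance models, a replicate block, each array left out, and averaging the probe sets of each gene.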

Additional observations from a re-analysis of the deposited data

How the results depend on the processing

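Over 271 refits of the 23 tested member probe sets, 242 kept their direction and side of the threshold, 23 lost a call, 4 gained one and 2 changed sign, namely Myc without DBA replicate 1 and Pim1 1423006_at without AKR replicate 3. With 1 array left out, Myc ran from -0.48 to 0.20 and Pim1 1423006_at from -0.064 to 0.078, neither called with all arrays. The number of member probe sets called was 8, and 5 to 7 with 1 array left out, with 5 without AKR replicate 2, DBA replicate 1 or DBA replicate 2. The count over all probe sets was 7449, and 5161 to 6317 with 1 array left out. Without sharing of variance between probe sets, 2 member probe sets (Evi5 1417513_at and Pim1 1435458_at) and 3544 probe sets in all were called, and the cause was not tested. Without the filter 8 of 25 were called, among them the dim Ccnd2 1416123_at (adjusted p = 0.00435) and no longer Ccnd1 1448698_at (adjusted p = 0.0544, limma). The counts were 8 of 18 with a filter at the 60th percentile, 8 with robust variance estimation and 9 with quantile normalization. Only Evi5 1417513_at kept its call in all 12 alternatives among the members (adjusted p from 4.67e-05 to 0.0272, limma). Averaging the probe sets of each gene gave 2 called members of 10, Evi5 and Ccnd2, and taking the brightest also gave 2, Evi5 and Ccnd3.

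The replicate numbers were not taken as pairs in the main fit. Deviations of same-numbered arrays from their group means correlated at 0.389, 0.0697 and 0.371, all positive. What same-numbered arrays may share was not tested. With the replicate number as a block, 9 member probe sets and 9839 in all were called, and Ccnd2 1416122_at was the one added (adjusted p = 0.0356, limma). The adjusted p of Ccnd3 1444323_at went from 0.0272 to 0.000179 with the block (limma). Dim probe sets are limited by signal over background, and values of Mycn 1425922_a_at and Ccnd2 1416123_at were for that reason left out of the filtered test.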
